A study of Mus musculus with 6 samples.

Results

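The comparison of TGF-β1 plus DMSO with vehicle covered 2 libraries of NIH/3T3 cells, an established mouse embryonic fibroblast line, kept for 72 h with TGFB1 at 1 ng/ml and DMSO (TGF-β1 plus DMSO, replicates 1 and 2), and 2 libraries kept for 72 h with PBS (vehicle, replicates 1 and 2). Its genes were all those with at least 10 counts in total over the 6 libraries of the series, 17936 of the 54752 genes in the table. The other 2 libraries, with TGFB1 and the PLK1 inhibitor BI6727 at 5 μM, entered the fit and gave part of the estimate of the spread. Per the labels, the groups were cultured alike in complete DMEM. The vehicle was PBS and the treated cells also received DMSO, with no library of DMSO alone, so the part of TGF-β1 and that of DMSO in any difference cannot be told apart. NIH/3T3 is a single immortalised line, and nothing in the labels says that the replicates were separate cultures, so the p-values measure only the spread between these samples. In bulk RNA a change in the number of cells of one kind and a change in RNA per cell cannot be told apart.

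TGF-β1 is a secreted cytokine held in the matrix in a latent form. Once active it binds the type II and type I receptors, which phosphorylate SMAD2 and SMAD3, while the related bone morphogenetic proteins (BMPs) signal through SMAD1, SMAD5 and SMAD9 to genes such as the Id family. In fibroblasts TGF-β1 is known for inducing the myofibroblast state, with α-smooth muscle actin (Acta2) in stress fibres and a collagen-rich matrix, and for feedback through SMAD7, SKIL and PMEPA1. The SMADs share target promoters with AP-1, the dimers of FOS, JUN and related factors.

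The 4 libraries held 19371925 to 22310489 counts. A gene was called when edgeR's quasi-likelihood test gave a Benjamini-Hochberg adjusted p below 0.01 and the fold change was above 2 (a log2 fold change beyond 1 in size). By this rule 413 genes rose (2.3% of those tested) and 488 fell (2.72%), together 5.02%. Dropping the minimum fold gave 690 higher (3.85%) and 773 lower genes (4.31%), together 8.16%, and 30.5% of genes had an unadjusted p below 0.05. The vehicle and treated values did not overlap in 56.4% of all tested genes, so separation of 2 values from 2 is common here and the fitted test carries each call. Levels are given as normalized CPM (counts scaled to the library total after TMM adjustment) in the order replicate 1, replicate 2, and log2 fold changes are TGF-β1 plus DMSO minus vehicle with their standard errors. The called genes lay at all but the lowest levels. Of 4641 genes whose higher group averaged under 1 CPM, 0.0646% were called, against 6.49% of 3296 genes at 1 to 10 CPM, 6.63% of 7377 genes at 10 to 100 CPM and 7.44% of 2622 genes over 100 CPM.

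**Figure D1:**
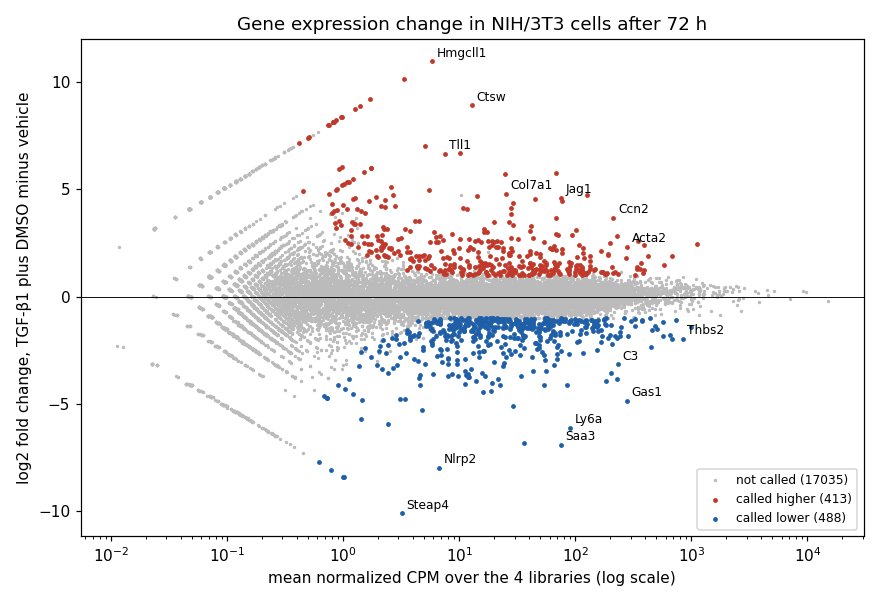
Log2 fold change of each tested gene (TGF-β1 plus DMSO minus vehicle) against its mean normalized CPM over the 4 libraries on a log axis, with 413 genes called higher in red, 488 called lower in blue and all others in grey. The lines of points that fan out at the left are genes with no or few counts in 1 group, whose fitted fold changes are not bounds.

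The 2 treated libraries differed more from each other than the 2 vehicle libraries did. Over 12975 genes, the log2 values of a group's 2 replicates differed with an SD of 0.448 in TGF-β1 plus DMSO and 0.293 in vehicle, counting genes with a mean of at least 1 CPM. The difference followed gene length. In replicate 2 of TGF-β1 plus DMSO the median log2 difference from the vehicle mean went from 0.297 in the shortest of 4 groups of genes by annotated exon length to -0.322 in the longest, whereas in replicate 1 it stayed between -0.02 and -0.0095. Mitochondrially encoded genes took 3.41% of counts in replicate 1 and 5.58% in replicate 2, and 4.66% and 4.77% in the vehicle libraries. The part of this difference in the results was not tested beyond a fit with length offsets, which called 499 genes higher and 521 lower (5.69% together), and a fit without replicate 2, which called 485 higher and 495 lower. The medians of the gene lists, except that of connexins and pannexins, are plotted below for each treated library. They are given in the text for some of the lists of long or short genes.

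**Figure D2:**
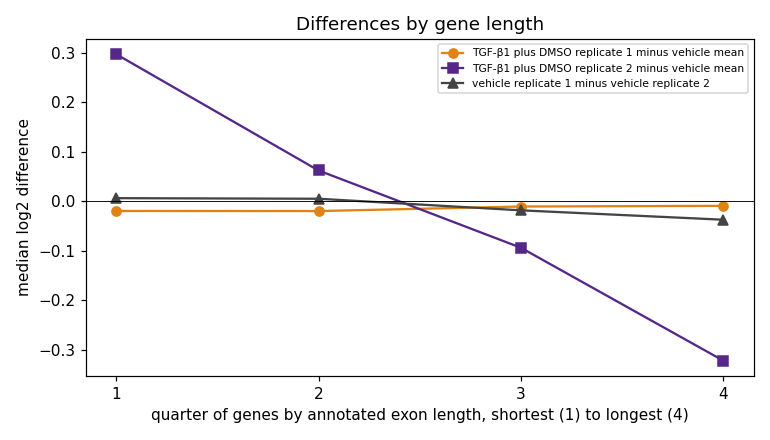
Median log2 difference (y axis) over 4 groups of about equal gene number ordered by annotated exon length (x axis, shortest to longest), for each TGF-β1 plus DMSO library against the vehicle mean and for vehicle replicate 1 against replicate 2. Replicate 2 of TGF-β1 plus DMSO falls from 0.297 to -0.322, and the other 2 lines stay within 0.04 of 0.

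Genes were grouped into 59 lists, of which 53 held at least 1 called gene. The counts in each list stand beside 5.02% called among all tested genes, 2.3% higher and 2.72% lower, and no list was tested as a set. Of the 269 called genes selected for naming, 118 kept their call when each of the 6 libraries was left out in turn. The other 151 kept their direction but lost the call in at least 1 of these fits, with an adjusted p of up to 0.113, and those described below are listed at the end of each group. The libraries named there were not always the only ones whose removal cost a call. Some of the genes described share 50-base windows of their exons with other annotated transcripts, so that their counts are uncertain. Besides those marked where they are given, the highest shares were in Fstl3 (46.2% of its windows), Ly6c1 (32.8%), Mmp19 (24.7%), Pdgfa (21.3%), Sod2 (21%) and Dusp5 (20.5%).

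The genes of TGF-β signalling moved in both directions. Of 21 listed ligands, 9 were tested and 2 rose, and none of these 9 fell. Inhba, which encodes the activin βA subunit (mm10, chr13:16011851-16031621), measured 6.50 and 7.16 CPM in the vehicle libraries and 166 and 131 CPM with TGF-β1 plus DMSO (log2 fold change 4.44 ± 0.18, adjusted p = 1.1e-06). Tgfb1 itself, the gene of the added cytokine, went from 55.7 and 71.8 to 160.0 and 143 CPM (log2 fold change 1.25 ± 0.15, adjusted p = 3.8e-04). Tgfb3 was not called, at 45.3 and 51.4 against 90.6 and 63.7 CPM (adjusted p = 0.022). Among 14 tested receptors, Tgfbr3, the co-receptor betaglycan, fell from 133 and 109.7 to 21.5 and 16.5 CPM (log2 fold change -2.68 ± 0.17, adjusted p = 8.3e-06). Acvrl1, the type I receptor ALK1, rose at a low level, from 1.01 and 0.76 to 2.62 and 3.68 CPM. The signalling receptors Tgfbr1 and Tgfbr2 were lower without passing the test (log2 fold changes -0.59 ± 0.13 and -0.67 ± 0.19, adjusted p = 0.015 and 0.036). Of 18 tested latency proteins and antagonists 2 rose and 1 fell. Thbs1, a matrix protein that can activate latent TGF-β, rose from 89.3 and 64.9 to 379 and 239.5 CPM, and Fstl3, an activin antagonist, had a log2 fold change of 1.47 ± 0.18. Bmper, a BMP modulator, fell (log2 fold change -1.5 ± 0.16).

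Several inhibitors of the SMAD pathway rose and most BMP targets fell. Of 19 tested SMADs and feedback genes 5 rose and 2 fell, with a list median of 0.06 on the log2 scale. Pmepa1, which sequesters receptor-activated SMADs, measured 51.9 and 60.6 CPM in vehicle and 414 and 391 CPM with TGF-β1 plus DMSO (log2 fold change 2.84 ± 0.12, adjusted p = 1.1e-06). Skil, the co-repressor SnoN, went from 22.1 and 20.8 to 123 and 96.9 CPM (log2 fold change 2.36 ± 0.14). Tgif1, another co-repressor, had a log2 fold change of 1.30 ± 0.11, and the inhibitory Smad7 one of 1.24 ± 0.13. Smad3 fell from 68.0 and 71.2 to 32.0 and 25.4 CPM (log2 fold change -1.28 ± 0.14, adjusted p = 2.6e-04), and Smad9, a BMP-specific SMAD, from 12.7 and 11.4 to 3.43 and 5.05 CPM. Of 10 listed BMP-SMAD targets 8 were tested, 6 fell and 0 rose, and the median log2 fold change was -1.29 against -0.00088 over all tested genes. Atoh8, a transcription factor of the BMP response (chr6:72206177-72235577), fell from 44.3 and 42.7 to 4.33 and 4.82 CPM (log2 fold change -3.25 ± 0.18, adjusted p = 4.6e-06). Id2, an inhibitor of basic helix-loop-helix factors, fell from 97.9 and 94.8 to 25.2 and 24.7 CPM (log2 fold change -1.95 ± 0.17). The related Id3, Id4 and Id1 had log2 fold changes of -1.33, -1.24 and -1.07. In each named BMP target both treated values lay below both vehicle values. This adds little, since 56.4% of all tested genes did not overlap and these targets were named for their calls or values. The Hedgehog list, whose pathway also patterns mesenchyme, had 3 of 14 tested genes lower and 0 higher, led by the co-receptor Gas1 (614 and 471 against 21.5 and 16 CPM, log2 fold change -4.85), with Cdon at -1.43 and the transcription factor Gli2 at -1.36. Left out singly, 1 or more libraries removed the calls of Tgfb1, Acvrl1, Thbs1, Fstl3, Bmper, Smad7, Smad3, Smad9, Id3, Id4, Id1, Cdon and Gli2, and leaving out a vehicle library did so for each of them (highest adjusted p = 0.0686, for Cdon).

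**Figure D3:**
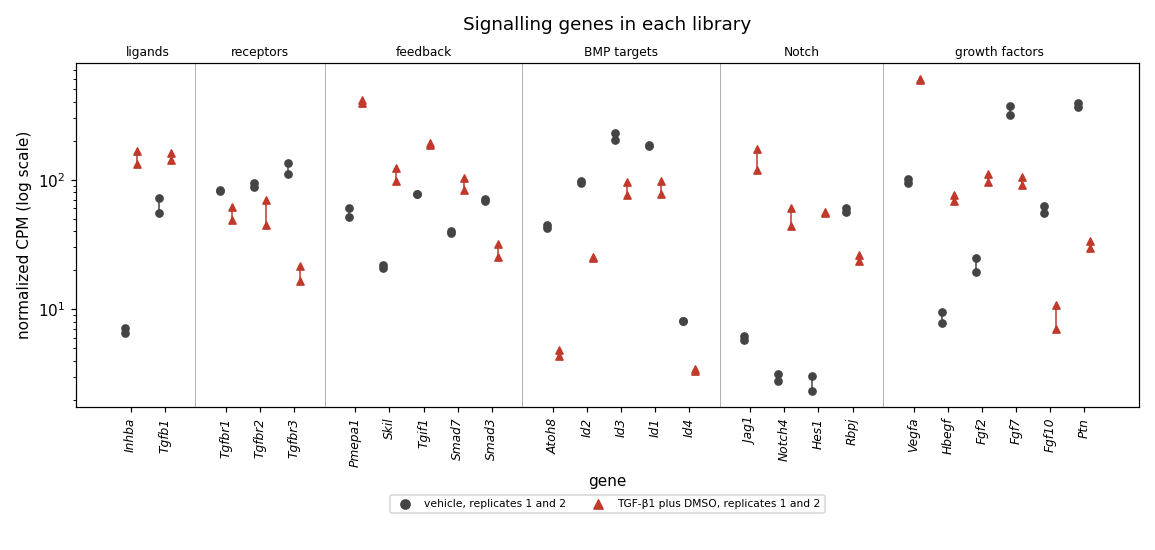
Normalized CPM (log axis) of signalling genes in each library, grouped by role, with vehicle as grey circles and TGF-β1 plus DMSO as red triangles and a line joining the 2 replicates of a group. The treated libraries lie above vehicle for Inhba (166 and 131 against 6.50 and 7.16 CPM), the feedback genes other than Smad3, Jag1, Notch4 and Hes1, and below it for the BMP targets, Fgf7, Fgf10 and Ptn.

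Genes of the Notch pathway, in which a ligand on 1 cell activates a receptor on its neighbour, included 3 with a log2 fold change above 4. Of 19 tested genes 4 rose and 1 fell. The ligand Jag1 (chr2:137081456-137116644) measured 5.74 and 6.22 CPM in vehicle and 172 and 119 CPM with TGF-β1 plus DMSO (log2 fold change 4.60 ± 0.20, adjusted p = 1.1e-06). The receptor Notch4 went from 3.17 and 2.77 to 60.9 and 44.0 CPM (log2 fold change 4.14 ± 0.21, adjusted p = 2.6e-06). The target gene Hes1, a repressor, went from 2.32 and 3.04 to 56.2 and 55.6 CPM (log2 fold change 4.37 ± 0.19, adjusted p = 1.1e-06). The ubiquitin ligase Dtx4 rose by less (log2 fold change 1.21 ± 0.15), and Rbpj, the DNA-binding partner of Notch, fell (-1.24 ± 0.13). The list median was 0.26. The call of Dtx4 was lost without either vehicle library (highest adjusted p = 0.0264).

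Growth factor families held genes called in both directions. Among 16 tested FGF and PDGF genes, Fgf2 rose from 19.2 and 25.0 to 110.5 and 95.2 CPM (log2 fold change 2.22 ± 0.15, adjusted p = 1.5e-05) and Pdgfa from 41.9 and 47.9 to 183 and 189.7 CPM (log2 fold change 2.05 ± 0.12). The epithelial-acting ligands Fgf7 and Fgf10 fell, Fgf7 from 373 and 318 to 90.2 and 106 CPM (log2 fold change -1.82 ± 0.13, adjusted p = 1.8e-05) and Fgf10 from 62.1 and 54.9 to 10.8 and 7.03 CPM (log2 fold change -2.71 ± 0.21, adjusted p = 2.8e-05). The receptors Pdgfra and Fgfr2 fell too (log2 fold changes -1.85 ± 0.22 and -1.35 ± 0.13). In the VEGF, angiopoietin and HGF list 2 of 18 tested genes rose and 2 fell. Vegfa, the main angiogenic ligand, went from 94.0 and 101 to 600.2 and 584 CPM (log2 fold change 2.60 ± 0.11, adjusted p = 1.1e-06) and the lymphangiogenic Vegfc from 1.56 and 1.07 to 9.81 and 11.7 CPM, whereas Vegfd and Hgf fell (log2 fold changes -1.92 ± 0.21 and -1.39 ± 0.16). Hbegf, an EGF receptor ligand, was the only called gene of 12 tested in its family (log2 fold change 3.07 ± 0.18). The heparin-binding factor Ptn fell from 391 and 364 to 29.7 and 33.7 CPM (log2 fold change -3.57 ± 0.16, adjusted p = 1.2e-06) and the GDNF family receptor Gfra2 from 10.3 and 6.44 to 0.571 and 0.614 CPM. Of 35 tested Wnt genes 1 rose, the ligand Wnt9a (2.53 ± 0.18), and 2 fell, the antagonist Sfrp2 (-3.36 ± 0.30) and Dkk3 (-2.69 ± 0.23). The called share of the Wnt list, 8.57%, was near the 5.02% of all tested genes. Among 44 tested axon guidance genes 6 rose and 3 fell, with Sema7a at 2.99 ± 0.20, Efnb1 at 1.77 ± 0.15 and Unc5b at 1.65 ± 0.19, and the secreted Slit2 and Slit3 at -2.13 ± 0.24 and -2.41 ± 0.28. Leaving out 1 or the other vehicle library removed the calls of Pdgfra, Vegfd, Hgf, Unc5b, Slit2 and Slit3 (highest adjusted p = 0.0207, for Unc5b).

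The contractile genes rose in part. Of 27 listed, 24 were tested, 3 rose and 1 fell by the fold rule, and 8 rose at any fold. The 3 became 5 without TGF-β1 plus DMSO replicate 2 and 6 with length offsets. Acta2 (chr19:34241090-34255336) measured 89.3 and 98.5 CPM in vehicle and 469.7 and 464 CPM with TGF-β1 plus DMSO (log2 fold change 2.31 ± 0.11, adjusted p = 2.2e-06). Myl9, a regulatory myosin light chain, went from 2.11 and 2.01 to 14.1 and 16.7 CPM (log2 fold change 2.90 ± 0.21, adjusted p = 2.1e-05), and Smtn, smoothelin, had a log2 fold change of 1.19 ± 0.15. Mylk, the kinase of these light chains, fell from 5.89 and 6.22 to 1.14 and 0.803 CPM (log2 fold change -2.63 ± 0.31, adjusted p = 3.8e-04). The markers Tagln and Cnn1 were near the detection limit, at 0.453 and 0.268 against 0.809 and 1.56 CPM and 1.26 and 0.939 against 0.286 and 0.0944 CPM, and neither was called (adjusted p = 0.069 and 0.038). For Tagln 58.3% of its 50-base windows are shared with other annotated transcripts, so its counts are uncertain. Ccn2, connective tissue growth factor and a YAP target, rose from 30.0 and 32.6 to 380.1 and 411 CPM (log2 fold change 3.66 ± 0.12, adjusted p = 5.5e-07). Of the PDZ and LIM linkers of the actin cytoskeleton, Pdlim1 and Pdlim7 (log2 fold changes 1.86 ± 0.12 and 1.41 ± 0.12) were called higher and Pdlim2 lower (-1.16 ± 0.20). Smtn, Mylk and Pdlim2 were not called without a vehicle library, and Pdlim2 was lost also without a BI6727 library (highest adjusted p = 0.0706).

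Integrin α and β chains, the receptors for matrix, had 5 called higher and 1 called lower of 19 tested (3 lower without TGF-β1 plus DMSO replicate 2), and list medians of 0.59 in replicate 1 and 0.15 in replicate 2. Itga2, the α2 chain of a collagen receptor, went from 0.806 and 1.30 to 33.4 and 21.8 CPM (log2 fold change 4.69 ± 0.31, adjusted p = 1.3e-05). Itgb3, the β3 chain, went from 5.99 and 4.65 to 63.8 and 42.5 CPM (log2 fold change 3.32 ± 0.23, adjusted p = 1.4e-05). The fibronectin receptor chain Itga5 had a log2 fold change of 1.57 ± 0.14, the laminin receptor chains Itga3 and Itga7 of 1.53 ± 0.16 and 1.88 ± 0.29. Itga11, another collagen receptor chain, fell from 5.99 and 4.92 to 1.14 and 0.378 CPM (log2 fold change -2.83 ± 0.49). The calls of Itga3, Itga7 and Itga11 were lost without at least 1 vehicle library (highest adjusted p = 0.0695).

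The matrix genes rose and fell in separate groups. Of 11 fibrillar collagens, all tested, 3 rose and 0 fell, with a median log2 fold change of 0.87 (1.13 in replicate 1 and 0.55 in replicate 2), and 6 rose without replicate 2. Col5a3 went from 2.57 and 4.65 to 107 and 65.9 CPM (log2 fold change 4.57 ± 0.30, adjusted p = 1.1e-05), Col11a2 had a log2 fold change of 1.65 ± 0.22 and Col27a1 of 1.42 ± 0.16. The chains of type I collagen were not called. Col1a1 measured 428 and 374 CPM in vehicle and 847 and 438 CPM with TGF-β1 plus DMSO (adjusted p = 0.088), and Col1a2 1899 and 1694 and 1420.3 and 855 CPM (adjusted p = 0.052). The treated replicates differed from each other by more than the group means did for Col1a1, and by about as much for Col1a2. Fibronectin, Fn1, was on both sides of vehicle, at 1397 and 1301 CPM in vehicle and 2639 and 1082 CPM in the treated libraries (adjusted p = 0.35), and its log2 fold change was -0.32 when TGF-β1 plus DMSO replicate 1 was left out and 0.99 when replicate 2 was. Col7a1, the anchoring fibril collagen (chr9:108953586-108984875), went from 1.66 and 1.83 to 49.7 and 47.9 CPM (log2 fold change 4.80 ± 0.17, adjusted p = 5.5e-07), and was the single call above vehicle among 22 tested non-fibrillar collagens, of which 4 fell (4 higher and 2 lower without replicate 2). The network-forming Col4a6 and Col4a5 fell (log2 fold changes -2.59 ± 0.22 and -1.68 ± 0.23), as did the microfibrillar Col6a1 and Col6a2 (-1.36 ± 0.23 and -1.14 ± 0.21), whose treated values were lower in replicate 2 (348 and 191 CPM for Col6a1).

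The elastic fibre and fibulin genes had 4 of 10 tested lower and 0 higher (2 higher without replicate 2), with a median of -1.16 (-1.07 in replicate 1 and -1.05 in replicate 2). Efemp1, fibulin-3 (chr11:28853204-28926743), fell from 371 and 322 to 23.0 and 22.8 CPM (log2 fold change -3.92 ± 0.14, adjusted p = 5.5e-07). Fbln5, fibulin-5, which guides elastin onto microfibrils, fell from 381 and 364 to 136 and 98.5 CPM (log2 fold change -1.66 ± 0.15, adjusted p = 7.8e-05), and Emilin2 had a log2 fold change of -1.31 ± 0.12. The matricellular list, proteins that modulate cell and matrix contacts, had 6 of 25 tested higher and 8 lower. Postn, periostin, rose from 8.76 and 5.81 to 70.6 and 26.2 CPM (log2 fold change 2.74 ± 0.41, adjusted p = 0.0017), with replicate 1 the higher of the treated libraries. Sparcl1 fell from 80.8 and 78.8 to 9.05 and 5.19 CPM (log2 fold change -3.49 ± 0.23, adjusted p = 1.1e-05), Ccn5, a CCN family member that lacks the C-terminal domain, from 143 and 114 to 24.9 and 18.9 CPM (log2 fold change -2.55 ± 0.19, adjusted p = 2.2e-05), and Thbs2, an angiogenesis inhibitor, from 1438 and 1253 to 417 and 267 CPM (log2 fold change -1.98 ± 0.19, adjusted p = 1.1e-04). Within the CCN family Ccn2 and Ccn4 rose (3.66 and 1.27 on the log2 scale) while Ccn5 and Ccn3 fell (-2.55 and -1.71). Of 29 tested proteoglycan and hyaluronan genes 5 fell and 1 rose, Cspg4 (1.38 ± 0.23), and at any fold 6 fell and 5 rose. Among the falls were 3 small leucine-rich proteoglycans, Dcn (decorin, which binds TGF-β) from 1210.3 and 959 to 311 and 246 CPM (log2 fold change -1.96 ± 0.16, adjusted p = 3.9e-05), Lum (lumican) from 11 and 7.16 to 1.14 and 0.897 CPM and Prelp with a log2 fold change of -4.54 ± 0.69. Of the basement membrane genes 3 of 16 tested rose and 3 fell, with medians of -0.29 in replicate 1 and -0.68 in replicate 2. Lamb3, a laminin β chain, had a log2 fold change of 4.21 ± 0.45, and Lama4 and the linker Nid1 had -1.86 ± 0.24 and -1.86 ± 0.24. Among 25 tested collagen-processing enzymes Tll1, a procollagen C-proteinase of the tolloid group, rose from 0.101 and 0.179 to 17.1 and 12.7 CPM (log2 fold change 6.65 ± 0.35, adjusted p = 3.5e-06). Its relative Bmp1 and the lysyl hydroxylase Plod2 rose by less (1.27 ± 0.13 and 1.33 ± 0.13), while the C-proteinase enhancer Pcolce and the lysyl oxidase Loxl1 fell (-1.15 ± 0.12 and -1.16 ± 0.14). Calls were lost without at least 1 vehicle library for Col11a2, Col27a1, Col4a5, Col6a1, Col6a2, Postn, Ccn4, Ccn3, Cspg4, Lum, Prelp, Lama4, Nid1, Bmp1, Pcolce and Loxl1. Of these, Col27a1 was lost without replicate 2 of vehicle alone. Those of Col6a1, Col6a2 and Loxl1 were lost also without TGF-β1 plus DMSO replicate 2, and those of Ccn4 and Cspg4 without replicate 1. Col11a2, Col4a5, Col6a1, Col6a2, Postn, Ccn4, Ccn3, Cspg4, Lama4 and Nid1 were lost also without a BI6727 library. Over these fits the log2 fold change nearest to 0 was -0.98 for Col6a1, -0.78 for Col6a2, 0.89 for Ccn4 and 0.91 for Cspg4.

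Of the lists of matrix-degrading systems, that of the plasminogen system and serpins had the most calls above vehicle. Of its 24 tested genes, some of them outside the plasminogen system, 6 rose and 3 fell. Serpinb2, an inhibitor of the plasminogen activators, went from 0.705 and 0.716 to 6.71 and 9.87 CPM (log2 fold change 3.53 ± 0.31, adjusted p = 6.1e-05). The activator uPA, Plau, and its receptor Plaur rose as well (1.56 ± 0.17 and 1.95 ± 0.13). Procr, the protein C receptor, had a log2 fold change of 1.26 ± 0.14. Serpina3g, Serpina3n and the protease nexin Serpine2 fell (-2.38 ± 0.15, -2.27 ± 0.15 and -1.15 ± 0.14), and the Serpina3 paralogs are similar enough that reads may be split between them. Among 19 tested metalloproteinases and inhibitors the collagenase Mmp13 rose from 0.101 and 0.358 to 4.52 and 4.20 CPM (log2 fold change 4.18 ± 0.43, adjusted p = 1.7e-04). Mmp10, stromelysin-2, had 2 counts over both vehicle libraries, and its treated to vehicle ratio was 40.5 (exact 95% counting interval 10.9 to 340.4). Timp1 rose (1.37 ± 0.15), and Mmp19 and Timp2 fell (-2.44 ± 0.15 and -1.08 ± 0.12). Adam12, a protease of the ADAM family, rose from 3.37 and 3.89 to 64.1 and 41.0 CPM (log2 fold change 3.85 ± 0.24, adjusted p = 7.9e-06), and Adamts5, an aggrecanase, fell (-2.07 ± 0.21). Without vehicle replicate 1 no call was made for Plau, Procr, Serpine2, Mmp10, Timp1 and Timp2 (highest adjusted p = 0.0199, for Timp1).

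**Figure D4:**
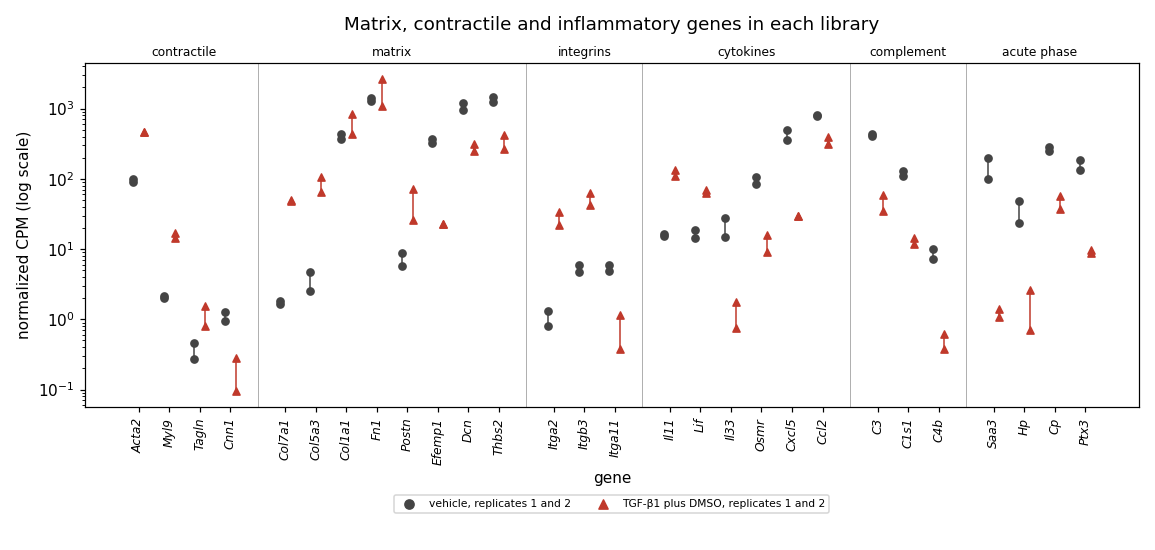
Normalized CPM (log axis) of contractile, matrix, integrin, cytokine, complement and acute-phase genes in each library, with vehicle as grey circles and TGF-β1 plus DMSO as red triangles and a line joining the replicates of a group. Col7a1 and Il11 lie above vehicle in both treated libraries, Efemp1, C3 and Saa3 below it, and for Fn1 the treated values lie on both sides of the vehicle values.

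Inflammatory genes were called in both directions, with some cytokines higher and chemokines, receptors and complement components lower. Of 27 tested interleukin genes 6 rose and 9 fell. The gp130 cytokine Il11 went from 16.2 and 15.3 to 108 and 133 CPM (log2 fold change 2.94 ± 0.14, adjusted p = 2.3e-06), Lif from 14.3 and 18.5 to 61.8 and 68.9 CPM (log2 fold change 1.99 ± 0.16, adjusted p = 4.3e-05) and Clcf1 had a log2 fold change of 1.31 ± 0.13. Il6 rose from 5.84 and 3.62 to 10.8 and 15.8 CPM (log2 fold change 1.5 ± 0.27, adjusted p = 0.0047). The receptor chains of this family moved the other way, the shared subunit Il6st (gp130) from 377 and 352 to 121 and 73.0 CPM (log2 fold change -1.91 ± 0.20, adjusted p = 2.0e-04) and Osmr, the oncostatin M receptor, from 107 and 85.7 to 15.8 and 8.97 CPM (log2 fold change -2.96 ± 0.24, adjusted p = 3.9e-05). The alarmin Il33 fell from 27.5 and 14.8 to 1.76 and 0.755 CPM (log2 fold change -4.06 ± 0.41, adjusted p = 1.4e-04) and the receptor Il1r1 had a log2 fold change of -2.06 ± 0.15. Il1rn, the interleukin-1 receptor antagonist, had 2 counts in the vehicle libraries, and its ratio of treated to vehicle was 72.1 (exact 95% counting interval 19.6 to 601). Of 16 tested chemokines 5 fell and 1 rose. Cxcl5, a neutrophil attractant, fell from 502 and 356 to 29.4 and 29.9 CPM (log2 fold change -3.85 ± 0.17, adjusted p = 1.2e-06), Cxcl1 and Ccl7 had log2 fold changes of -2.07 ± 0.24 and -1.93 ± 0.14, and the monocyte attractant Ccl2 of -1.18 ± 0.13. Ccl5 rose from 2.87 and 4.03 to 12.2 and 12.5 CPM.

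Complement genes had 5 of 19 tested lower and 2 higher. The central component C3 fell from 435 and 401 to 58.4 and 35.2 CPM (log2 fold change -3.16 ± 0.22, adjusted p = 1.5e-05), and the C1 proteases C1s1 and C1ra from 129 and 109 to 14.5 and 11.6 CPM and from 66.2 and 60.9 to 5.38 and 4.30 CPM (log2 fold changes -3.19 ± 0.19 and -3.71 ± 0.24). C4b had a log2 fold change of -4.11 ± 0.35. The last 3 share 35.1%, 50.8% and 34.6% of their 50-base windows with other transcripts, so their levels are uncertain. Clu, clusterin, a complement inhibitor, rose from 3.07 and 3.76 to 15.2 and 17.7 CPM (log2 fold change 2.26 ± 0.19, adjusted p = 5.1e-05). Cfi, complement factor I, had 0 counts in both vehicle libraries and 1.67 and 2.22 CPM in the treated ones, at least 27.4-fold higher against a floor of 3 counts over the vehicle group. Interferon-stimulated genes showed no single direction, with 3 of 46 tested higher and 5 lower (3 lower without replicate 2). Isg15 rose from 6.95 and 7.47 to 27.5 and 44.9 CPM (log2 fold change 2.33 ± 0.23, adjusted p = 1.4e-04) while Ifit2 fell from 74.4 and 78.7 to 34.7 and 31.7 CPM (log2 fold change -1.21 ± 0.12, adjusted p = 1.6e-04), and the guanylate-binding Gbp2 and Gbp9 had log2 fold changes of -2.00 ± 0.30 and -2.49 ± 0.39. The calls of Clcf1, Il6, Il6st, Il1rn, Ccl2, Ccl5, Cfi, Isg15, Gbp2 and Gbp9 were lost without vehicle replicate 1 (highest adjusted p = 0.074, for Il6).

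Prostanoid genes were called in 7 of 13 tested, 2 higher and 5 lower. The inducible cyclooxygenase Ptgs2 rose from 121 and 123 to 420.1 and 424 CPM (log2 fold change 1.78 ± 0.10, adjusted p = 6.4e-06), whereas the prostaglandin E synthase Ptges fell (-1.27 ± 0.12). The receptors for prostaglandin F and prostacyclin, Ptgfr and Ptgir, fell from 109.8 and 93.2 to 7.24 and 4.63 CPM (log2 fold change -4.10 ± 0.24, adjusted p = 7.2e-06) and from 9.26 and 7.83 to 0.714 and 0.614 CPM (log2 fold change -3.67 ± 0.29, adjusted p = 3.5e-05). The prostaglandin transporter Slco2a1 had a log2 fold change of -2.64 ± 0.23. In the ERK list, the dual-specificity phosphatases Dusp4, Dusp5 and Dusp9 rose (2.11 ± 0.15, 2.22 ± 0.13 and 1.91 ± 0.17), 3 of 23 tested, and 0 fell. Sphk1, sphingosine kinase 1, which was chosen after its values were seen, rose from 16.9 and 13.6 to 60.3 and 73.7 CPM (log2 fold change 2.14 ± 0.16, adjusted p = 2.4e-05).

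Transcription factors of the immediate response moved both ways, with 5 of 27 tested AP-1, EGR and MYC genes higher and 3 lower. Egr2 rose from 4.38 and 3.35 to 26.1 and 20.6 CPM (log2 fold change 2.60 ± 0.21, adjusted p = 4.2e-05), Atf3 from 4.13 and 4.96 to 15.9 and 27.2 CPM and Maff had a log2 fold change of 1.66 ± 0.18. Fos fell from 28.1 and 11.3 to 2.00 and 3.21 CPM (log2 fold change -2.91 ± 0.42, adjusted p = 0.0013), with the vehicle libraries far apart, and Fosl2 had -1.10 ± 0.12. Of 40 tested mesenchymal factors 5 fell and 2 rose (6 without TGF-β1 plus DMSO replicate 2), with a median of -0.14. Prrx1 and Prrx2, homeobox factors of limb and skin mesenchyme, fell from 719 and 660.4 to 264 and 202 CPM (log2 fold change -1.57 ± 0.14, adjusted p = 7.0e-05) and from 174 and 163 to 48.9 and 52.1 CPM (log2 fold change -1.74 ± 0.15, adjusted p = 6.2e-05). Osr1 and the zinc finger repressor Snai2 had log2 fold changes of -2.14 ± 0.13 and -1.41 ± 0.16, and the circadian repressor Bhlhe40 rose (1.32 ± 0.14). Among 27 tested nuclear receptors Nr2f1, the orphan receptor COUP-TFI, fell from 97.6 and 90.1 to 17.0 and 11.9 CPM (log2 fold change -2.70 ± 0.18, adjusted p = 1.4e-05) and Vdr, the vitamin D receptor, had -1.42 ± 0.25. With vehicle replicate 1 left out, there was no call for Atf3, Maff, Fos, Fosl2, Snai2, Bhlhe40 and Vdr (highest adjusted p = 0.0681, for Vdr).

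Promoters of the called genes were searched for 4 motifs on both strands of the 250 bases before and 50 bases after each RefSeq start (GRCm38.p6). The AP-1 element TGANTCA was found for 18.3% of 289 matched genes that rose, 9.12% of 362 that fell and 6.88% of 11339 matched genes in all. The TEAD element GGAATG was found for 20.8%, 20.7% and 14.9% of the same sets, the CArG box bound by SRF for 2.77%, 1.38% and 1.68%, and the palindrome GTCTAGAC of SMADs for 0%, 0% and 0.247%. The motifs were counted separately, and a match is a description and not a binding site. The stretches below, upstream of the start, hold the AP-1 element in capitals for 8 genes that rose and that act in cytokine signalling, proteolysis, coagulation or lipid signalling, chosen after the matches were seen. Each is written 5′ to 3′ on the strand of its gene.
Il11, chr7:4778213-4778259, minus strand: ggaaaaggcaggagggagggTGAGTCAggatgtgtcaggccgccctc
Lif, chr11:4257320-4257366, plus strand: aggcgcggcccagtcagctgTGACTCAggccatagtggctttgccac
Mmp10, chr9:7502259-7502305, plus strand: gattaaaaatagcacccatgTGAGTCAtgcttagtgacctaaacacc
Mmp13, chr9:7272459-7272505, plus strand: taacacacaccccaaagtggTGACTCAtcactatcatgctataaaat
Plaur, chr7:24462394-24462440, plus strand: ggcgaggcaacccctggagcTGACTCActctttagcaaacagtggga
Serpinb2, chr1:107511309-107511355, plus strand: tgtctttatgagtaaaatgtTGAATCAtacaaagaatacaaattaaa
Sphk1, chr11:116531767-116531813, plus strand: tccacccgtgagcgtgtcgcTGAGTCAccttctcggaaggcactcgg
Procr, chr2:155751043-155751089, plus strand: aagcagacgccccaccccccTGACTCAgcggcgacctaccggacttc

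The first base of the element lay 98 bases before the start in Il11, 228 in Lif, 63 in Mmp10, 35 in Mmp13, 69 in Plaur, 94 in Serpinb2, 50 in Sphk1 and 154 in Procr. Their log2 fold changes were 2.94, 1.99, 5.18, 4.18, 1.95, 3.53, 2.14 and 1.26, with Mmp10 resting on 2 vehicle counts.

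Genes of cell division showed small differences. Of 48 tested mitosis and spindle genes 0 were called by the edgeR test with the fold rule, and 8 fell and 0 rose at any fold (8.16% of all tested genes passed that rule). DESeq2 and limma voom called 0 of them too, and 31 had an unadjusted p below 0.05, 1 of these higher. The list median was -0.39, at -0.36 in replicate 1 and -0.45 in replicate 2. Nuf2, of the kinetochore, measured 168 and 172 CPM in vehicle and 96.9 and 96.0 CPM with TGF-β1 plus DMSO (log2 fold change -0.82 ± 0.10, adjusted p = 6.7e-04). Plk1, the kinase that BI6727 inhibits, measured 95.7 and 104 and 70.6 and 69.2 CPM and missed the threshold (log2 fold change -0.51 ± 0.11, adjusted p = 0.012). The 50 DNA replication genes had a median of -0.0091, with 0 called by edgeR, DESeq2 or limma voom under the fold rule and 3 passing at any fold in edgeR, 1 higher and 2 lower. At an unadjusted p below 0.05 there were 18. Of 30 tested CDK inhibitors, D cyclins and p53 targets 7 rose and 2 fell. Gadd45g, a stress gene, went from 10.8 and 12.0 to 60.2 and 90.6 CPM (log2 fold change 2.73 ± 0.20, adjusted p = 2.1e-05), the pro-apoptotic Pmaip1 from 2.77 and 3.71 to 13.3 and 15.7 CPM (log2 fold change 2.15 ± 0.21, adjusted p = 1.2e-04) and Mdm2, the ubiquitin ligase of p53, from 202 and 222 to 491 and 530.3 CPM (log2 fold change 1.27 ± 0.11, adjusted p = 7.3e-05). The CDK inhibitor Cdkn1a was higher at a fold below 2 (log2 fold change 0.87 ± 0.12, adjusted p = 0.0011), and Cdkn2c fell (-1.01 ± 0.11), a call that was lost without vehicle replicate 1 (highest adjusted p = 0.0126).

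The metabolic lists differed in their share of called genes, from 0% to 15.2%, against 5.02% of all tested genes. Of 33 tested glycolysis and hypoxia genes 4 rose and 1 fell (15.2%), Vegfa, Ankrd37, Egln3 and Ddit4 upwards and Adm, adrenomedullin, downwards from 13.9 and 10.4 to 2.10 and 1.56 CPM (log2 fold change -2.73 ± 0.28, adjusted p = 1.8e-04). No enzyme of glycolysis was called among them. Of 47 tested pentose phosphate and antioxidant genes 0 rose and 5 fell (10.6%), and the 5 were Gstm1, Gstm2 and Gstt1 of the glutathione transferases, the oxidase Aox1 and the mitochondrial dismutase Sod2. Gstm1 went from 40.2 and 37.8 to 11 and 9.91 CPM (log2 fold change -1.89 ± 0.15, adjusted p = 4.0e-05). Lysosomal genes had 4 of 51 tested higher and 0 lower (7.84%), with the proton pump subunit Atp6v1g1 at 289 and 299 CPM in vehicle and 941 and 1222 CPM with TGF-β1 plus DMSO (log2 fold change 1.88 ± 0.14, adjusted p = 2.4e-05). The cathepsins Ctsf and Ctsw rose from near 0, Ctsf from 0.101 and 0.268 to 16.8 and 23.7 CPM. None of the 76 ribosomal protein genes, 70 nuclear genes of oxidative phosphorylation and 13 mitochondrial genes was called by edgeR under either rule, or by DESeq2 or limma voom under the fold rule, and 34, 11 and 1 of them had an unadjusted p below 0.05. Their medians differed between the treated libraries, at 0.13 and 0.69 for ribosomal proteins, -0.08 and 0.39 for oxidative phosphorylation and -0.44 and 0.33 for mitochondrial genes in replicates 1 and 2, and their genes are short. Calls were lost without at least 1 vehicle library for Ankrd37, Egln3, Ddit4, Gstm2, Gstt1, Aox1 and Sod2 (highest adjusted p = 0.0559, for Aox1).

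**Figure D5:**
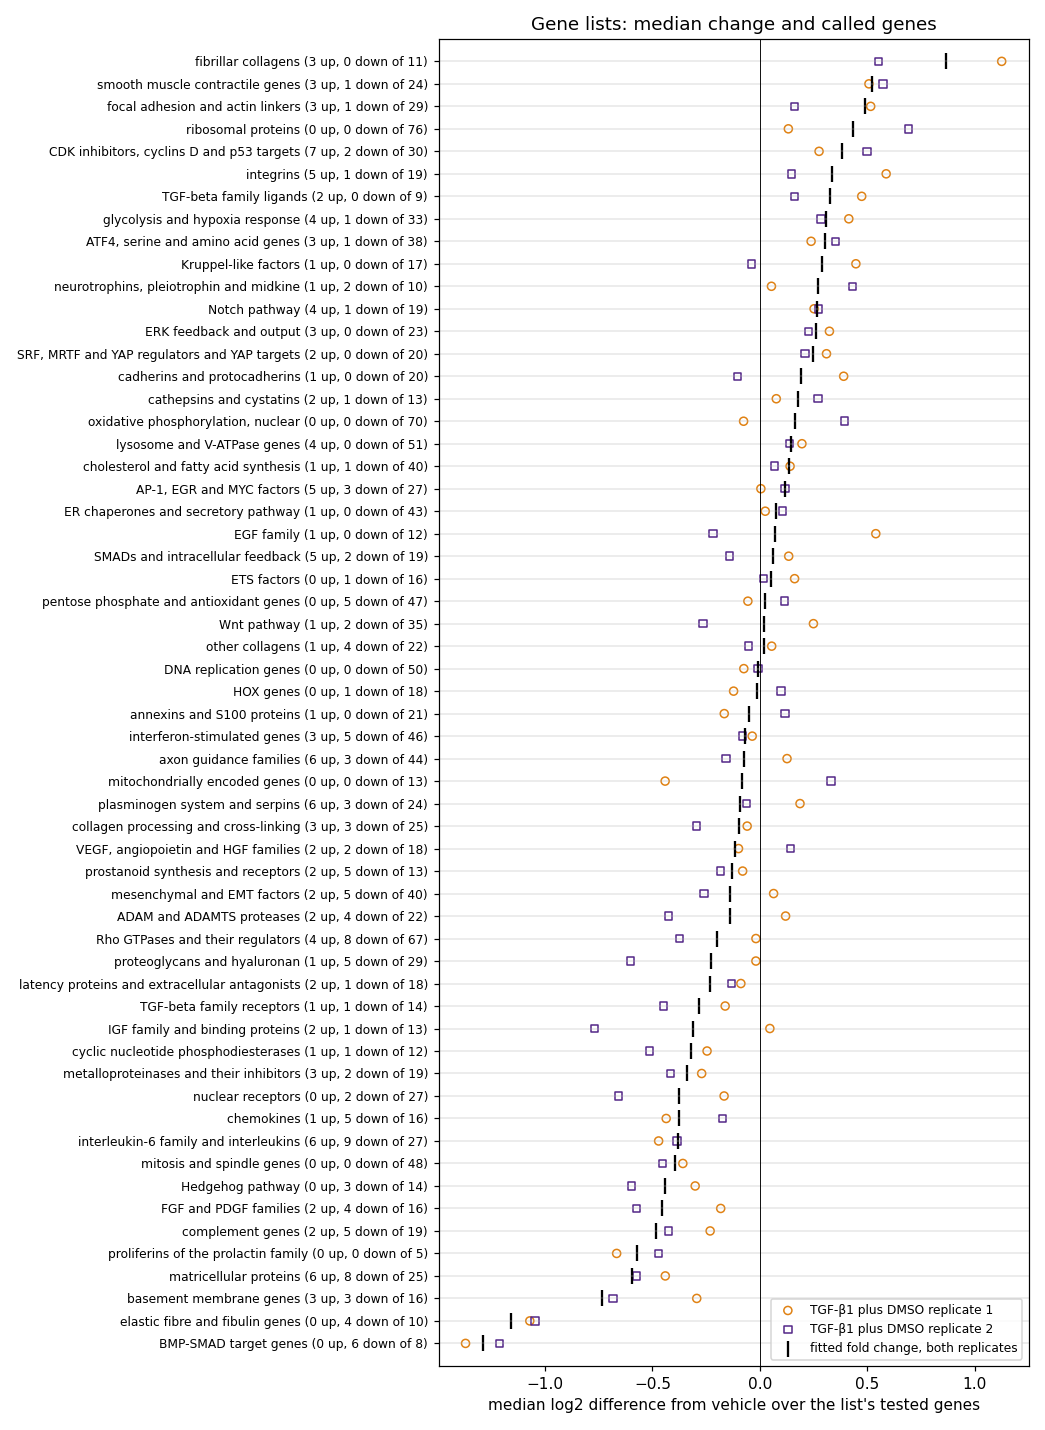
Median log2 difference from vehicle over the tested genes of each list plotted (x axis), with the called genes counted in the labels. Circles are replicate 1 and squares replicate 2 of TGF-β1 plus DMSO, and bars are the fit. Of the lists plotted, BMP-SMAD targets are lowest (-1.29) and fibrillar collagens highest (0.87), and the ribosomal protein and mitochondrial lists have replicates that lie far apart. Left out of the plot is the list of connexins and pannexins, whose median is higher still. It is 2.70 in the fit, 2.72 in replicate 1 and 2.70 in replicate 2. Of its 7 tested genes 3 were called higher and 0 lower, beside 5.02% called among all tested genes.

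The largest changes were in genes at or near 0 in 1 group. Hmgcll1, a lyase of ketone body synthesis, had 0 counts in both vehicle libraries and 13.3 and 10.1 CPM with TGF-β1 plus DMSO, at least 165-fold higher against the floor of 3 counts over the vehicle group. Dynap and the tight junction gene Cgn also had 0 vehicle counts, and were at least 94.1-fold and 35.4-fold higher. Among the falls, Steap4, a metalloreductase, went from 7.10 and 5.77 CPM to 0 counts in both treated libraries, at least 89.9-fold lower. Nlrp2, of the inflammasome family, went from 15.2 and 11.7 CPM to 2 counts in replicate 1 and 0 in replicate 2, a vehicle to treated ratio of 281 (exact 95% interval 77.5 to 2328, counting error only). Ly6a, the surface protein Sca-1, fell from 202 and 156 to 2.57 and 2.60 CPM (log2 fold change -6.11 ± 0.21, adjusted p = 5.5e-07), and its paralog Ly6c1 from 82.1 and 60.5 to 0.524 and 0.708 CPM (log2 fold change -6.84 ± 0.27, adjusted p = 1.0e-06). The call of Steap4 was lost without vehicle replicate 1 (adjusted p = 0.0132).

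The fibroblast label was checked against 10 fibroblast markers, all tested and summing to 7707 to 8878 CPM in the 4 libraries. Pdgfra fell, as given above, and Ddr2, a collagen receptor kinase, fell from 160.4 and 168 to 84.5 and 58.9 CPM (log2 fold change -1.19 ± 0.16, adjusted p = 9.2e-04). Markers of other cells were at or near 0. Krt18, Krt5, Cldn7 and Esrp1 (epithelium), Kdr, Tie1 and Emcn (endothelium), Adgre1, Fcgr3 and Tyrobp (macrophages), Cd3e, Cd4 and Cd8a (T cells) and Myod1 and Myog (skeletal muscle) had 0 counts in all 4 libraries. The 10 epithelial markers summed to 0.453 and 0.492 CPM in vehicle and 2.33 and 1.98 CPM with TGF-β1 plus DMSO, mostly from Krt14 (0.151 and 0.179 against 1.71 and 1.79 CPM, called higher). The calls of Ddr2 and Krt14 were lost without a vehicle or a BI6727 library, and that of Ddr2 also without TGF-β1 plus DMSO replicate 2.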

How the data were processed

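RNA was measured in 6 NIH/3T3 libraries, 2 per group. Per the labels, total RNA was depleted of ribosomal RNA, and the processing notes and methods name Subread 1.6.4, mm10, featureCounts and DESeq2 1.22.2 in R 3.6.1. The authors deposited raw counts per Gencode gene, and the strand setting of the counting is not given in the sources used here, so reads of overlapping antisense genes cannot be told apart. Groups came from the sample titles. The table also has 8 columns without names or values, which were not used.

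Counts were tested with edgeR 4.0.16 (glmQLFit and glmQLFTest, TMM scaling, all 6 libraries, no covariate) over 17936 genes with at least 10 counts in total, and p-values were adjusted by Benjamini and Hochberg. Standard errors are the log2 fold change divided by the square root of its F statistic. Log2 CPM per library used a prior count of 1. On simulated data with 200 genes changed 3-fold, 185 were recovered with 2 false calls. The simulation gave all libraries the same spread per gene and no trend with gene length. The treated libraries here differ in both, so these numbers do not measure the error of the calls. Alternatives were DESeq2 1.42.0, its size factors, 3 other filters, the 4 libraries compared, gene length offsets, a replicate block, limma voom 3.58.1 with sample weights, other thresholds and each library left out. Promoters of chromosome 18 were not searched. Counting intervals are exact 95% intervals and cover counting error only.

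Members and gene lists were chosen with earlier results of these data known. Named genes were up to 5 called genes with the largest fold in each direction per list, and the 15 largest rises and falls whose groups did not overlap and whose higher group averaged at least 1 CPM. The rule would also name the 3 genes of highest mean in lists without calls, which are given by counts only. Genes outside this rule, chosen after their values were seen, are Plk1, Tgfbr1, Tgfbr2, Tgfb3, Col1a1, Col1a2, Fn1, Tagln, Cnn1, Cdkn1a, Sphk1, Id1, Nuf2, Ddr2, Ccn3, Krt14, Lpl, Hp, Cp, Ptx3, Ifitm2, Ifitm3, Slc40a1 and Slc11a1. Some genes selected by the rule are not reported here.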

Additional observations from a re-analysis of the deposited data

How the results depend on the processing

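Of the 413 and 488 genes called higher and lower, the counts moved by over 1.5 times in these settings. With the study's filter of 10 CPM in more than 3 samples they were 244 and 241, with the 4 compared libraries only 275 and 318, with adjusted p below 0.01 and no minimum fold 690 and 773. Leaving out 1 library at a time gave 150 to 584 genes higher and 168 to 870 lower. The lowest counts came without vehicle replicate 1 and the highest without TGF-β1 plus DMSO replicate 1. With an arm of 1 library, that library is assumed to vary like the other groups. Without vehicle replicate 2 they were 175 and 229, without BI6727 replicate 1 255 and 294, and without BI6727 replicate 2 256 and 305. These fits have fewer samples, and no other cause was tested. The counts were 471 and 512 with DESeq2, 419 and 470 with its size factors, 402 and 472 with filterByExpr, 584 and 647 with no filter, 499 and 521 with length offsets, 394 and 419 with limma voom and 575 and 623 at adjusted p below 0.05. Under the study's filter 244 of the 413 and 234 of the 488 genes were still called.

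Samples with the same replicate number did not deviate together (r = -0.0438 between vehicle and TGF-β1 plus DMSO over 12975 genes). A replicate block gave 411 and 493 genes, and with length offsets 523 and 544.

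Of 280 named genes 1 reversed, Fn1, with log2 fold change -0.32 without TGF-β1 plus DMSO replicate 1 and 0.99 without replicate 2. The calls of 145 were lost without vehicle replicate 1, 117 without vehicle replicate 2, 11 and 18 without the treated replicates 1 and 2, 77 and 75 without BI6727 replicates 1 and 2, and 65 with the 4 libraries only. Of 4641 genes whose higher group averaged under 1 CPM 3 were called, and the part of depth in this was not tested.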

Other observations

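Some acute-phase and iron-handling genes were chosen after their values were seen, and are given as single genes and not as a tested list. Saa3, serum amyloid A3 (chr7:46711998-46715700), measured 199.6 and 98.1 CPM in vehicle and 1.38 and 1.09 CPM with TGF-β1 plus DMSO (log2 fold change -6.91 ± 0.41, adjusted p = 7.2e-06). Hp, haptoglobin, which binds haemoglobin, fell from 48.2 and 23.2 to 2.62 and 0.708 CPM (log2 fold change -4.42 ± 0.50, adjusted p = 3.1e-04), and Cp, the ferroxidase ceruloplasmin, from 280.4 and 245 to 57.7 and 37.2 CPM (log2 fold change -2.47 ± 0.19, adjusted p = 2.9e-05). Ptx3, a soluble pattern recognition protein, fell from 185 and 134 to 9.81 and 8.78 CPM (log2 fold change -4.10 ± 0.18, adjusted p = 1.2e-06). Lcn2, which binds siderophores, had log2 fold change -4.81 ± 0.81. In the other direction, the iron exporter Slc40a1 went from 2.72 and 2.28 to 6.14 and 6.47 CPM and the iron and manganese transporter Slc11a1 from 0.453 and 0.447 to 2.05 and 3.12 CPM (log2 fold changes 1.34 ± 0.25 and 2.50 ± 0.41). The 2 vehicle libraries were themselves apart for Saa3 and Hp, with replicate 1 the higher. Calls were lost without vehicle replicate 1 for Hp, Lcn2, Slc40a1 and Slc11a1 (highest adjusted p = 0.0776, for Slc40a1).

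The study describes a filter of at least 10 CPM in more than 3 of the 6 libraries. Applied to the counts used here, this filter left out several of the genes above. Since only 2 libraries are vehicle, a gene that falls below 10 CPM in the other 4 cannot pass it. In these counts 9518 genes passed. The study reports a larger expression profile and more called genes than the filter gave here. Whether its reported calls were limited in this way therefore cannot be told. Of the 488 genes called lower, 243 (49.8%) did not pass that filter, a share near the 46.9% of all tested genes that did not. Of these 243 genes 158 averaged at least 10 CPM in vehicle, which is 32.4% of all genes called lower. Over all 17936 tested genes, 488 (2.72%) did not pass although 1 of the groups vehicle and TGF-β1 plus DMSO averaged at least 10 CPM. This contrast follows in part from the filter's rule, which a gene high in the vehicle libraries alone cannot meet. Of the 413 called higher, 154 (37.3%) did not pass and 22 of these (5.33% of the 413) averaged at least 10 CPM with TGF-β1 plus DMSO. Saa3, Ly6a, Ly6c1, Hp, Ptx3 and Igsf10 were among the falls outside it, Igsf10 at 64.6 and 48.8 CPM in vehicle and 2.05 and 1.27 CPM treated (log2 fold change -5.09 ± 0.28, adjusted p = 4.3e-06).

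Grouped by symbol, 404 families had at least 5 tested genes and 244 of them held no called gene. At least 3 genes were called in 34 families. Among these, all calls ran downwards in the Ifi (5 of 13 tested), Gbp (3 of 9), Ifitm (3 of 6), Cxcl (3 of 6) and Nat (4 of 11) families. The same held for the Zfp (5 of 357), Pcdhb (4 of 20) and Gas (3 of 7) families. All calls ran upwards in the Dusp (3 of 20) and Prss (3 of 11) families. Over all tested genes 2.72% were called lower and 2.3% higher. Ifitm3 fell from 273 and 221 to 72.2 and 95.1 CPM (log2 fold change -1.56 ± 0.16, adjusted p = 2.0e-04) and Ifitm2 from 124 and 93.7 to 52.5 and 54.6 CPM. Near-identical members of the Ifi, Gbp, Ifitm and Nat families may share reads. Among 713 tested long intergenic RNAs 18 were called higher and 1 lower (2.66%), against 371 and 468 of 13373 protein-coding genes. The lipase Lpl, the single called gene of 8 adipocyte markers, fell from 55.3 and 32.7 to 7.52 and 4.91 CPM (log2 fold change -2.82 ± 0.32, adjusted p = 3.0e-04), while Lep had 0 counts throughout. The calls of Ifitm3 and Ifitm2 were lost without vehicle replicate 1 (highest adjusted p = 0.0276, for Ifitm2).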
